A study of Mus musculus with 12 samples.

Results

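The complement genes described here are 9 genes of the classical complement pathway and its receptors, taken by symbol from a table of 43346 mouse genes. They are the C1q chains C1qa, C1qb and C1qc, the components C4b, C4a and C3, the C1 inhibitor Serping1, and the anaphylatoxin receptors C3ar1 and C5ar1. Each symbol occurred once in the table, all 9 identifiers matched the GENCODE vM21 annotation of mm10, and all 9 passed the filter on low counts that left 22553 genes for testing.

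RNA came from a cross-section of brain with hippocampus and cortex of mice labelled wild type, in 12 libraries, 4 in each of 3 groups. Young mice were 3 months old, with the strain label C57BL/6 and no treatment. The Old group consisted of mice aged 23 months, listed under the strain C57BL/6;SJL-Tg, which from 9 months on drank vehicle (0.1% polyethylene glycol, PEG, in water). The Old_CP2 group matched Old in age and strain label, and its mice received CP2, which inhibits mitochondrial complex I, at 25 mg/kg/day in the same vehicle over the same period. The titles of all 12 libraries, those of CP2-treated mice included, begin with NTG. The design text of the series describes CP2-treated mice as APP/PS1 transgenic, against the label wild type, and this conflict could not be settled. CPM below are counts scaled by library size and TMM factors. Libraries held 70548781 to 99449665 counts. Some libraries stood apart in tissue markers: 10 choroid plexus markers summed to 1226 to 1973 CPM in Young, and to 23.3 to 979 CPM in the old groups, lowest in Old 7, Old 9, Old_CP2 11 and Old_CP2 15. The counts below were repeated without these 4 libraries. This left Old 8 and Old 10, and Old_CP2 12 and Old_CP2 13, beside all Young libraries. Where a call ended in this setting, fewer libraries and choroid plexus content cannot be told apart. The labels do not say that each library is a separate animal, so p-values measure the spread between libraries only.

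Complement is a cascade of proteases and adhesive fragments that tags surfaces for removal. In the classical branch, C1q binds a target, its attached proteases cleave C4 and C2, the resulting convertase cleaves C3, and fragments of C3 bind receptors on phagocytes. In brain, microglia are the main source of C1q, astrocytes and other glia make C4, and the pathway is known for removing synapses during development and for its activity around plaques.

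Levels differed widely between the members. By the authors' deposited RPKM, a level per length, C1qa was at 31.8 ± 2.19 in Old (mean ± SD, n = 4), C1qb at 29.1 ± 4.07, C1qc at 14.1 ± 2.105 and C4b at 13.6 ± 5.20. Then came Serping1 at 2.78 ± 0.712, C4a at 1.44 ± 0.668, C3 at 1.12 ± 0.688, C3ar1 at 0.501 ± 0.113 and C5ar1 at 0.164 ± 0.0109 RPKM. The values of C1qa and C1qb overlapped in Old, as did those of C1qc and C4b, of C4a and C3, and of C3 and C3ar1. In Young, C4b was lower, at 3.00 ± 0.631 RPKM, and did not overlap C1qc at 10.7 ± 1.44. In Young, C1qb and C1qa came first with overlapping values, and the neighbours C4b and Serping1, Serping1 and C3, C3 and C4a, and C4a and C3ar1 overlapped too. Old_CP2 had the order of Old, with C1qa at 39.0 ± 7.53 and C4b at 14.4 ± 2.97 RPKM, and the same neighbouring pairs overlapped.

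In the comparison of Old with Young, 4 of the 9 members rose (C1qa, C4b, C4a and C3ar1) and 0 fell, where 3.96% of all tested genes were called higher and 2.74% lower. The median log2 fold change was 0.65 over the 9 members and 0.00 (-0.00342) over all tested genes. In 5 of 9 members, C1qa, C1qc, C4b, C3ar1 and C5ar1, every Old library was above every Young one, against 6.94% of tested genes. In the comparison of Old_CP2 with Young, 6 of 9 rose (C1qa, C1qc, C4b, C4a, Serping1 and C3ar1) and 0 fell, where 4.63% of tested genes were called higher and 2.94% lower. These 6 also had no overlap, against 8.42% of tested genes. The count of 6 was 3 without Young 1, without Young 3 or without Old_CP2 11. With Old 7, Old 9, Old_CP2 11 and Old_CP2 15 all left out, 3 members rose in Old and 5 in Old_CP2, each against Young. Both comparisons share the Young libraries, and age, strain label, vehicle and tissue markers cannot be told apart in either. Midbrain and hindbrain markers, for example, summed to 2.06 to 3.14 CPM in Young and to 14.4 CPM or more in the old groups. Old_CP2 differed from Young in CP2 treatment as well, which cannot be told apart from these. In the comparison of Old_CP2 with Old, edgeR called 0 of 9 members, with 0 at an unadjusted p under 0.05, and DESeq2 and limma voom also called 0. In that comparison 0.0443% of all tested genes were called and 6.31% had an unadjusted p under 0.05.

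**Figure D1:**
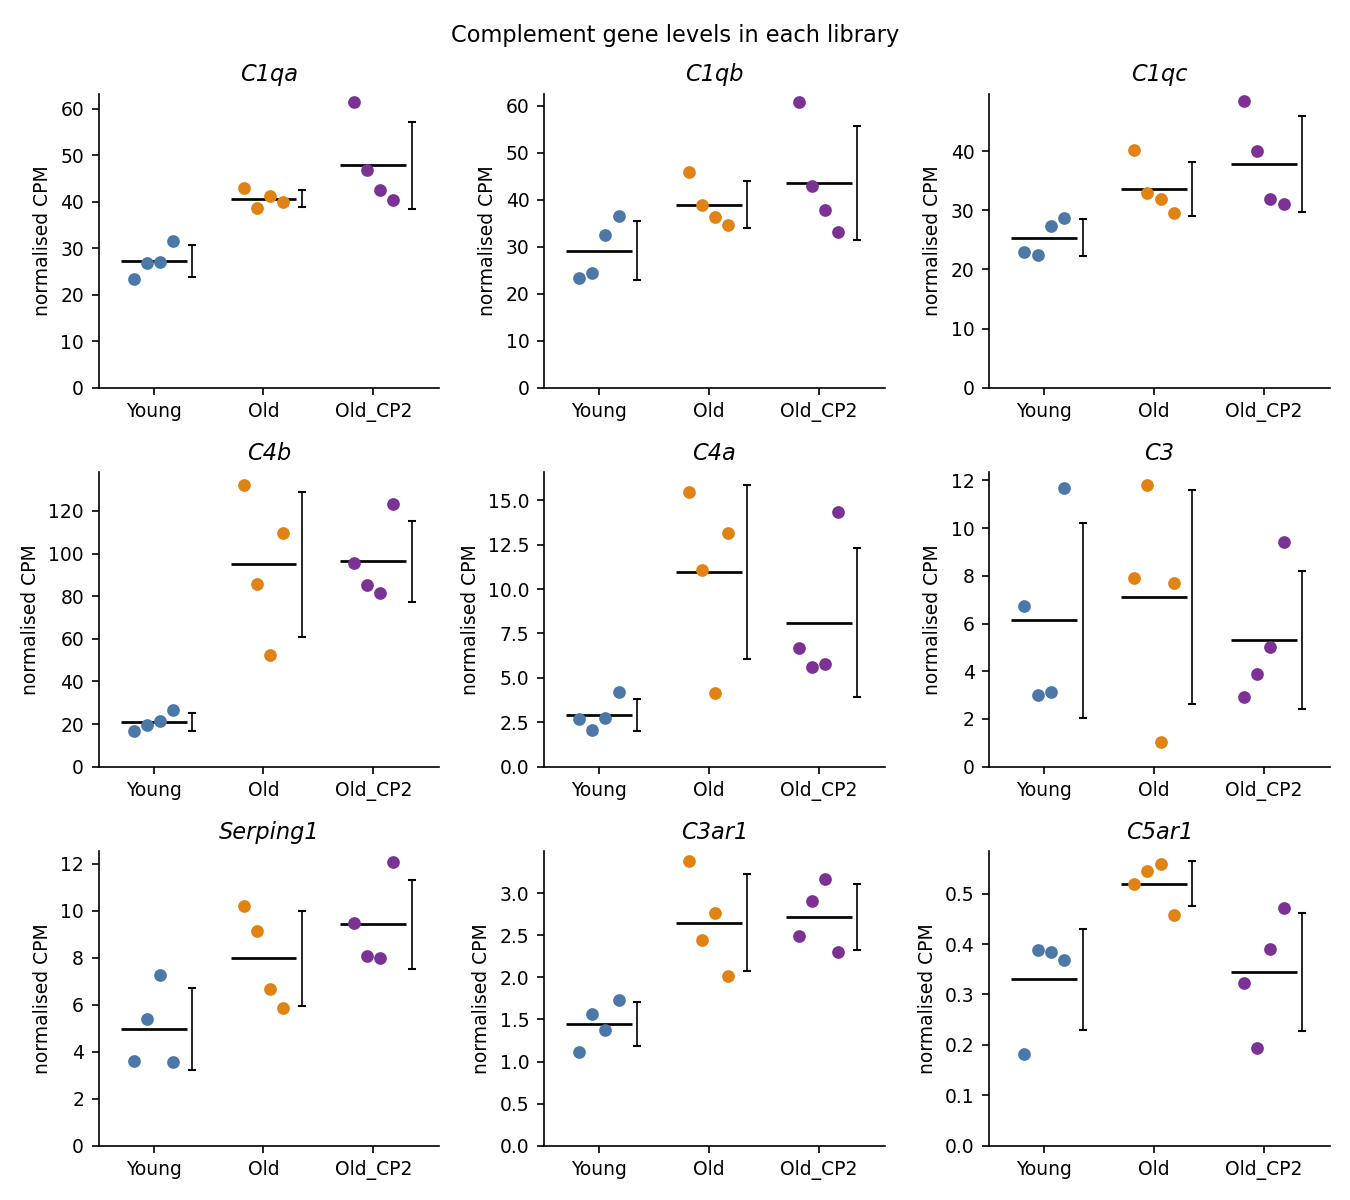
Level of each complement gene in normalised CPM (linear axis from 0) in the 4 libraries of each group; points are libraries, bars are means and the offset lines are ± 1 SD. C4b in Old and Old_CP2 lay between 52.3 and 132 CPM, above all Young libraries, while the 3 groups overlapped for C3.

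The C1q chains encode the 3 subunits of the molecule that recognises targets and starts the classical branch. The genes lie side by side on chromosome 4 of mm10, all on the minus strand and within 18675 bases: C1qb at 136880129 to 136886187, C1qc at 136889804 to 136893065 and C1qa at 136895917 to 136898803. C1qa (ENSMUSG00000036887) was at 23.4, 26.8, 27.0 and 31.7 CPM in the Young libraries. It was at 43.0, 38.6, 41.3 and 40.0 CPM in the Old libraries 7, 8, 9 and 10. In the Old_CP2 libraries 11, 12, 13 and 15 it was at 61.4, 46.9, 42.5 and 40.5 CPM. No Young library reached an old one, and Old_CP2 11 was the highest of all. C1qa rose 1.49-fold in Old (log2 fold change 0.58 ± 0.119 SE, n = 4 each, edgeR adjusted p = 0.0128) and by 0.81 ± 0.119 on the log2 scale in Old_CP2 against Young (edgeR adjusted p = 0.00211).

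C1qb (ENSMUSG00000036905) did not pass in any comparison. It was at 23.4, 24.5, 32.4 and 36.4 CPM in Young, at 46.0, 38.9, 36.3 and 34.7 CPM in Old and at 60.7, 42.9, 37.7 and 33.0 CPM in Old_CP2. Young 5 lay within the range of both old groups, and the other Young libraries were below it. Its log2 fold change was 0.42 in Old against Young (95% interval 0.03 to 0.81, edgeR adjusted p = 0.200) and 0.58 in Old_CP2 against Young (edgeR adjusted p = 0.0712). C1qb was called in Old_CP2 against Young without Old_CP2 15 (edgeR adjusted p = 0.0361).

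C1qc (ENSMUSG00000036896) was at 23.0, 22.4, 27.4 and 28.6 CPM in Young, at 40.2, 32.8, 31.9 and 29.6 CPM in Old and at 48.4, 40.1, 31.9 and 31.0 CPM in Old_CP2. All old libraries were above all Young ones. C1qc rose by 0.58 ± 0.14 on the log2 scale in Old_CP2 against Young (edgeR adjusted p = 0.0259), and had a log2 fold change of 0.41 ± 0.14 in Old, which did not pass (edgeR adjusted p = 0.105). With DESeq2 the latter was called (adjusted p = 0.0399). The call in Old_CP2 ended without Young 1, Young 3, Old_CP2 11 or Old_CP2 12 (adjusted p 0.0638 to 0.0735).

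The 3 chains varied together. Over the 12 libraries, log2 CPM of C1qb and C1qc had a Pearson r of 0.97, C1qa and C1qc of 0.93, and C1qa and C1qb of 0.90. With group means subtracted, r was 0.95, 0.85 and 0.91. These are descriptions over libraries that share group, depth and dissection. The ratio of C1qa to C1qb in RPKM lay between 0.873 and 1.28 in the 12 libraries, and that of C1qa to C1qc between 1.83 and 2.51. These ratios depend on the deposited gene lengths, 1040 bases for C1qa, 1088 for C1qb and 1931 for C1qc.

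Microglia markers were also higher in the old groups as a sum. The 12 marker genes, all measured and none at 0 reads, summed to 305 to 379 CPM in Young, between 403 and 426 in Old, and 392 to 409 in Old_CP2, and 2 of 12, among them Sall1, were called higher in Old. Over 12 libraries, log2 CPM of C1qa and the mean log2 CPM of the list, in which each gene weighs the same unlike in the sum, had an r of 0.36, and of 0.05 with group means subtracted, while C1qa and the midbrain and hindbrain markers had an r of 0.86 and 0.32. In bulk tissue, fewer or more cells of a type and less or more RNA per cell cannot be told apart. C1qa was at 7.36 to 8.37% of that sum in Young, between 9.31 and 10.7% in Old, and 10.3 to 15.1% in Old_CP2, so that its values relative to the markers did not overlap between Young and either old group. Relative to the markers, C1qb overlapped between Young (6.72 to 9.63%) and Old (8.15 to 11.4%). C1qc overlapped as well, at 6.15 to 7.56% in Young and 6.95 to 9.97% in Old. Markers of blood monocytes and neutrophils summed to at most 9.91 CPM in any library (Old 10), and border macrophage markers to 19.0 to 34.3 CPM; their part in the C1q levels was not tested.

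**Figure D2:**
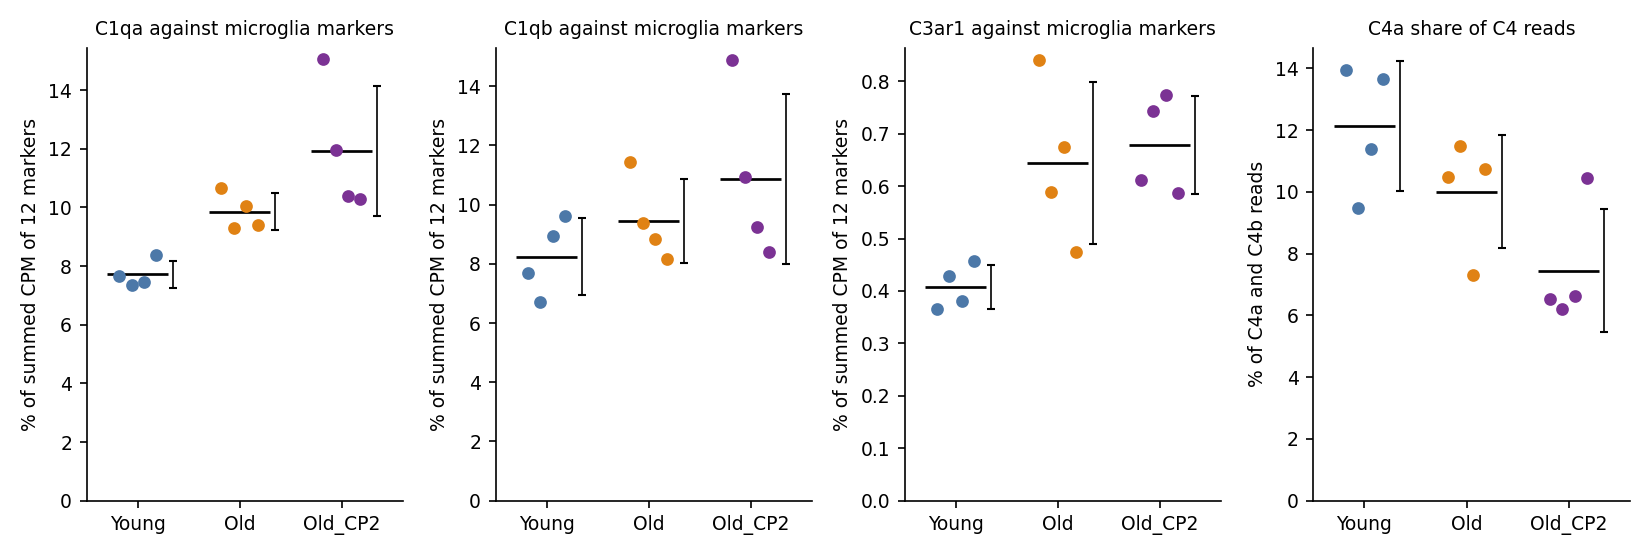
C1qa, C1qb and C3ar1 as a percentage of the summed CPM of 12 microglia markers, and the share of C4 reads assigned to C4a in percent, by group; points are libraries, bars are means and offset lines are ± 1 SD. C1qa in Young reached at most 8.37%, under all 8 old libraries, and the C4a share of Old_CP2 15 (10.4%) stood apart from the other Old_CP2 libraries.

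The window before the C1qb start is shown because its gene belongs to the cluster whose chains varied together. RefSeq promoter sequences (GRCm38.p6) of 300 bases were found for 5 of the 9 members. Both strands were searched for GAGGAA and AGGAAG, which overlap each other and hold the core of sites for ETS factors such as PU.1 of myeloid cells, and for TGACTCA, TTGCNNAA, TTCNNNGAA and the interferon-stimulated response element. The last 150 bases before the start of C1qb are on the minus strand of chr4:136886201-136886350, and capitals mark matches.
C1qb: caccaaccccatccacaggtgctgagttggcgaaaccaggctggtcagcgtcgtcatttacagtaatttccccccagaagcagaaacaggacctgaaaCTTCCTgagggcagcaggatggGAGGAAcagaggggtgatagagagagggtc
The C1qb and C1qc windows each held 1 match to GAGGAA and 2 to AGGAAG, and of all 27025 promoters 28.3% held the first and 35.1% the second. C3ar1 held 1 match to AGGAAG and 1 to TGACTCA, the AP-1 motif, which occurs in 5.17% of promoters. C5ar1 held 3 matches to AGGAAG. C3 held 1 match to TTGCNNAA, a form of the C/EBP motif found in 10.8% of promoters. These matches describe letters only.

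C4b encodes the active mouse C4, the component that joins the C3 convertase after C1 cleaves it, and had the largest change of the 9 members in both comparisons with Young. C4b (ENSMUSG00000073418; chromosome 17, 34728380 to 34743882, minus strand) was at 16.6, 19.5, 21.2 and 26.4 CPM in Young. It was at 132, 85.5, 52.3 and 109 CPM in Old 7, 8, 9 and 10, and at 95.6, 85.2, 81.3 and 123 CPM in Old_CP2 11, 12, 13 and 15. Even Old 9, the lowest old library, was above all Young ones. C4b rose 4.53-fold in Old (log2 fold change 2.18 ± 0.243 SE, n = 4 each, edgeR adjusted p = 0.000738) and 4.59-fold in Old_CP2 against Young (2.20 ± 0.243, edgeR adjusted p = 0.000472). Between Old_CP2 and Old the log2 difference was 0.02 (95% interval -0.48 to 0.52, edgeR adjusted p = 0.993). Its sign turned without Old 8, Old 9, Old_CP2 15 or the 4 libraries lowest in choroid plexus markers, and with C4a and C4b counts summed, with values down to -0.22.

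C4a encodes the second mouse C4 gene, known as sex-limited protein, which lacks haemolytic activity and lies 65209 bases from C4b on the same strand (ENSMUSG00000015451; chromosome 17, 34809092 to 34823464). GENCODE vM21 lists it as a processed transcript. It was at 2.69, 2.05, 2.73 and 4.18 CPM in Young. It was at 15.5, 11.1, 4.13 and 13.2 CPM in Old and at 6.68, 5.63, 5.76 and 14.4 CPM in Old_CP2. Old 9 fell within the Young range, and Old_CP2 15 was far above the other 3 treated libraries. C4a rose by 1.91 ± 0.397 on the log2 scale in Old (edgeR adjusted p = 0.0139) and by 1.47 ± 0.394 in Old_CP2 against Young (edgeR adjusted p = 0.0388). The second call ended without Young 1, Young 3, Young 4, Old_CP2 11 or Old_CP2 15 (adjusted p 0.0669 to 0.0955) and with limma voom (adjusted p = 0.103).

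The counts of C4a and C4b are uncertain as separate values, because the genes are near-identical copies. Aligned end to end, the transcripts C4b-201 (5379 bases) and C4a-207 (5371 bases) were identical at 96.1% of aligned positions, with 5160 identical bases and a longest identical run of 433 bases. Of all windows as long as a read (101 bases), 16.3% of those in C4b-201 occurred unchanged in C4a-207, and no source used here says how such reads were counted. The pair of 90-base stretches below is shown because it is the one with most differences, 14, that aligned without a gap, and so is where reads tell the copies apart best. Both are on the minus strand of mm10, within the coding part of C4b-201 (chr17:34735430-34735519) and at the aligned place in C4a-207 (chr17:34816086-34816175); capitals mark the differing bases.
C4b: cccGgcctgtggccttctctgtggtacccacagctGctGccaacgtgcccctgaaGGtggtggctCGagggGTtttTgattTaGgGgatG
C4a: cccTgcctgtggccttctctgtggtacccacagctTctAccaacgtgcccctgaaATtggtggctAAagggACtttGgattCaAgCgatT

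The share of C4 reads assigned to C4a, over both genes, was 14.0, 9.48, 11.4 and 13.7% in Young. It was 10.5, 11.5, 7.32 and 10.7% in Old. In Old_CP2 it was 6.53, 6.20, 6.61 and 10.4%, where the exact (Clopper-Pearson) 95% interval of Old_CP2 15, which covers counting error only, ran from 9.87 to 11.02%. Thus 3 Old_CP2 libraries were below every other library, and Old_CP2 15 lay within the range of Old. The mean share was 7.45 ± 2.0% in Old_CP2 and 10.0 ± 1.84% in Old, a difference of -2.56 percentage points that did not pass an exact two-sided permutation test (p = 0.0571, 0.0857 adjusted over 3 comparisons). The smallest p that 70 arrangements can give is 0.0286. For Old_CP2 against Young the exact permutation p was 0.0571 and for Old against Young 0.229. With both genes summed, C4 reads came to 19.3 to 30.6 CPM in Young, between 56.4 and 148 in Old, and 87.1 to 138 in Old_CP2, with no overlap between Young and either old group when reads were not split.

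Markers of other cell types and regions also differed between the groups. The 7 measured markers of midbrain and hindbrain, of 8 listed, summed to 2.06 to 3.14 CPM in Young, between 18.9 and 94.4 in Old, and 14.4 to 46.6 in Old_CP2, with none at 0 reads in all libraries, and all 7 were called higher in Old. The libraries highest in C4b, Old 7 (132 CPM) and Old_CP2 15 (123 CPM), were also the highest on that list, at 94.4 and 46.6 CPM. Over 12 libraries the mean log2 CPM of the list and C4b had an r of 0.95, and of 0.56 with group means subtracted. The 7 blood monocyte and neutrophil markers, all measured and none at 0, had an r with C4b of 0.89, and of 0.72 with group means subtracted. They summed to 2.22 to 2.58 CPM in Young, between 2.78 and 9.91 in Old, and 2.61 to 5.97 in Old_CP2. The 9.91 CPM came from Old 10, and the other Old libraries reached at most 4.16 CPM. Of the 7, 3 (S100a8, S100a9 and Ngp) were called higher in Old, from means of 0.0259, 0.0635 and 0.00558 CPM in Young. In Old they were at 0.878 ± 1.09, 1.17 ± 1.32 and 0.527 ± 0.516 CPM. Astrocyte markers, 9 of 9 measured and none at 0, summed to 3617 to 4213 CPM in Young, between 4582 and 5216 in Old, and 4044 to 4577 in Old_CP2, and 5 of 9 were called higher in Old. C4b was 0.459 to 0.685% of that sum in Young, between 1.05 and 2.89% in Old, and 1.79 to 2.97% in Old_CP2. Relative to 6 oligodendrocyte markers, all measured and summing to 5579 to 6799 CPM in Young and 4559 to 7350 in the old groups, it was 0.244 to 0.410% in Young and 1.03 to 2.106% in the old groups. C4b was thus above Young relative to either list, and the part of midbrain and hindbrain RNA, or of blood cells, in its rise was not tested.

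**Figure D3:**
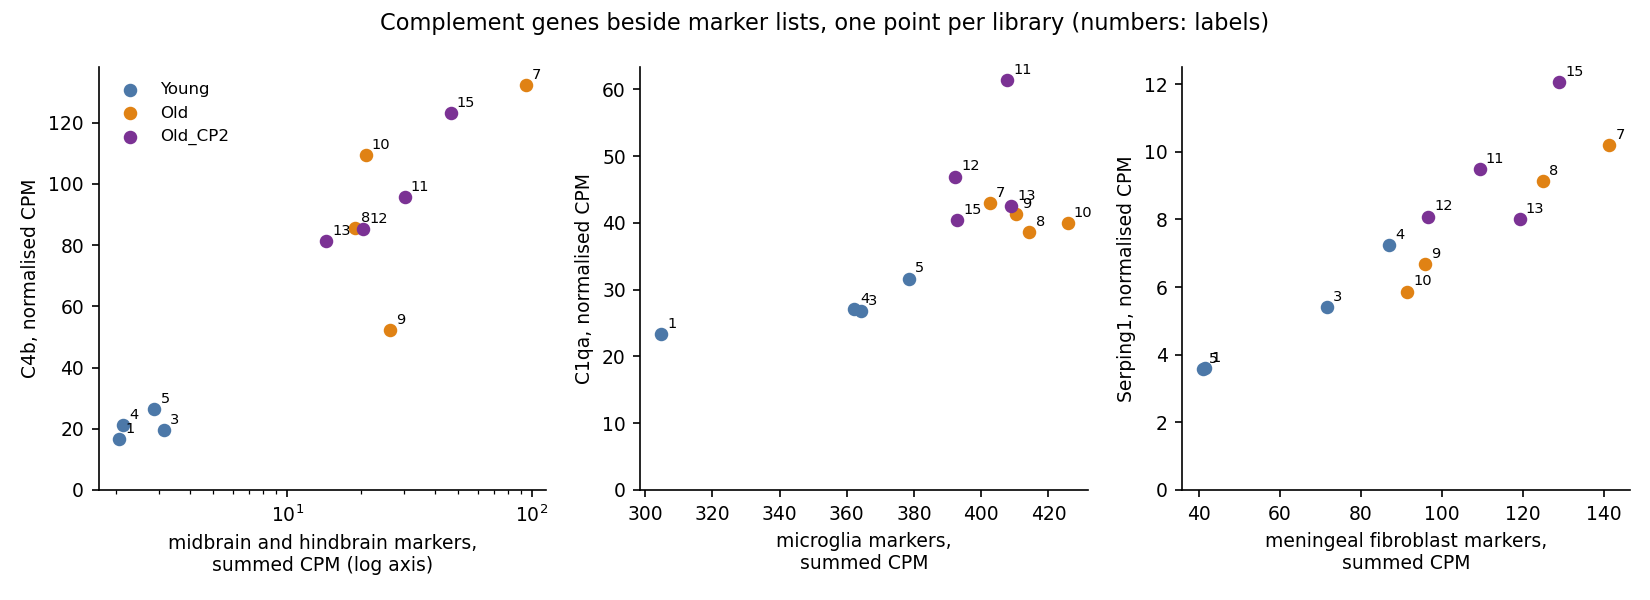
C4b, C1qa and Serping1 in normalised CPM against the summed CPM of midbrain and hindbrain, microglia and meningeal fibroblast markers; each point is a library with its label number, coloured by group, and the first horizontal axis is a log axis. Young libraries have the lowest marker sums in each plot, and Old 7 and Old_CP2 15 are high in both C4b and midbrain and hindbrain markers.

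C3 encodes the central component, whose cleavage all branches share. C3 (ENSMUSG00000024164; chromosome 17, 57203970 to 57228136) was at 6.73, 3.02, 3.12 and 11.7 CPM in Young and at 7.93, 11.8, 1.02 and 7.68 CPM in Old. In Old_CP2 it was at 2.92, 3.88, 5.02 and 9.43 CPM. The groups overlapped, and the libraries of Old differed 11.6-fold among themselves. The log2 fold change was 0.21 in Old against Young (95% interval -1.07 to 1.49, edgeR adjusted p = 0.891) and -0.42 in Old_CP2 against Old (-1.71 to 0.86, edgeR adjusted p = 0.926). Both intervals held 0 and reached past 0.86 on either side of it. With group means subtracted, C3 went with C4a at an r of 0.87 and with C4b at 0.72 over 12 libraries, and with C1qa at -0.20.

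Serping1 encodes the C1 inhibitor, a serpin that stops the proteases of C1. Serping1 (ENSMUSG00000023224; chromosome 2, 84765387 to 84775444) was at 3.60, 5.40, 7.24 and 3.57 CPM in Young and at 10.2, 9.13, 6.67 and 5.87 CPM in Old. In Old_CP2 it was at 9.48, 8.09, 8.00 and 12.1 CPM. Old_CP2 did not overlap Young, while Young 4 lay above Old 9 and Old 10. Serping1 rose by 0.93 ± 0.239 on the log2 scale in Old_CP2 against Young (edgeR adjusted p = 0.0336). In Old its log2 fold change of 0.69 ± 0.239 did not pass (edgeR adjusted p = 0.109), although DESeq2 called it (adjusted p = 0.0312) and edgeR called it without Young 4 (adjusted p = 0.0427). The Old_CP2 call ended without Young 1, Young 3, Young 5, Old_CP2 11 or Old_CP2 15 (adjusted p 0.0580 to 0.0896), and without the 4 libraries lowest in choroid plexus markers (0.182).

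Markers of meningeal fibroblasts and of border macrophages moved with Serping1. The 8 fibroblast markers, all measured and none at 0, summed to 41.0 to 87.1 CPM in Young, between 91.4 and 141 in Old, and 96.7 to 129 in Old_CP2, and 3 of 8 were called higher in each old group. Over 12 libraries the mean log2 CPM of the list and Serping1 had an r of 0.94, and of 0.91 with group means subtracted. For the 8 border macrophage markers, all measured and none at 0, r was 0.93, and 0.86 with group means subtracted. These summed to 19.0 to 29.0 CPM in Young, between 27.7 and 34.3 in Old, and 27.9 to 33.6 in Old_CP2, and 1 of 8 (Ms4a7) was called higher in each old group. Serping1 was 7.53 to 8.71% of the marker sum in Young, between 6.42 and 7.30% in Old, and 6.71 to 9.35% in Old_CP2. Relative to the fibroblast markers it was therefore not higher in Old than in Young in any library, and the part of either cell type in its levels was not tested. The genes most like it over 12 libraries, among 13806 compared, were Itih2, Fgl2, Cp, the copper ferroxidase ceruloplasmin, and Ptgds, the prostaglandin D synthase of meninges and choroid plexus (r 0.97 to 0.98).

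The receptors bind the small fragments C3a and C5a. C3ar1, the C3a receptor (ENSMUSG00000040552; chromosome 6, 122847138 to 122856161), was at 1.11, 1.56, 1.38 and 1.73 CPM in Young and at 3.38, 2.44, 2.77 and 2.02 CPM in Old. It was at 2.50, 2.91, 3.17 and 2.31 CPM in Old_CP2. Each old library was above each Young one. C3ar1 rose 1.83-fold in Old (log2 fold change 0.87 ± 0.179, edgeR adjusted p = 0.0129) and 1.88-fold in Old_CP2 against Young (0.91 ± 0.179, edgeR adjusted p = 0.00947). Without the 4 libraries lowest in choroid plexus markers the value in Old was 0.62 and not called (adjusted p = 0.122). As a share of the microglia marker sum C3ar1 was at 0.365 to 0.457% in Young and between 0.474 and 0.840% in Old. In Old_CP2 it was at 0.587 to 0.774%, and Young did not overlap either old group. Over 12 libraries C3ar1 had an r of 0.88 with the midbrain and hindbrain markers and of 0.60 with the microglia markers. With group means subtracted, r was 0.35 and 0.47. The part of either in its rise was not tested.

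C5ar1, the C5a receptor (ENSMUSG00000049130; chromosome 7, 16246743 to 16259540), was the scarcest member, with 14 to 47 reads per library. It was at 0.181, 0.387, 0.383 and 0.368 CPM in Young, at 0.520, 0.544, 0.558 and 0.457 CPM in Old and at 0.323, 0.194, 0.390 and 0.471 CPM in Old_CP2. Old libraries were above all Young ones, and Old_CP2 overlapped both. The log2 fold change was 0.65 in Old against Young (95% interval 0.01 to 1.28, edgeR adjusted p = 0.225). It was -0.60 in Old_CP2 against Old (-1.23 to 0.04, edgeR adjusted p = 0.796), which did not pass.

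CP2 treatment was not accompanied by a called change in any of the 9 genes. Median log2 fold change of the members in Old_CP2 against Old was 0.04, beside 0.00 (0.00174) over all tested genes. For C1qa the value was 0.23 (95% interval -0.02 to 0.49), and 0.08 without Old_CP2 11. For C1qb it was 0.16 (-0.23 to 0.55), for C1qc 0.17 (-0.13 to 0.47), for C3ar1 0.04 (-0.34 to 0.41), for Serping1 0.24 (-0.27 to 0.75) and for C4a -0.44 (-1.26 to 0.38). For C1qa, C1qb, C1qc, C4b and C3ar1 the intervals ended at or below 0.55 on either side of 0, while those of C4a, C3, Serping1 and C5ar1 reached further. They do not show that the groups were alike.

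**Figure D4:**
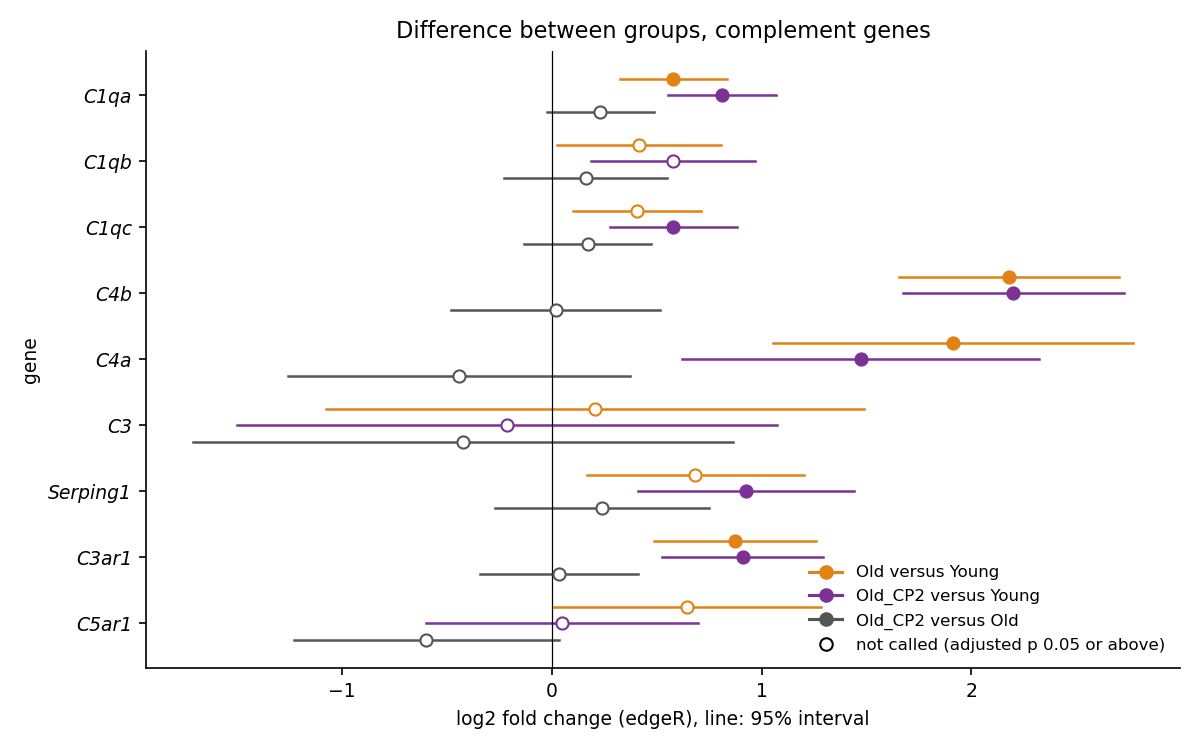
Log2 fold change of each complement gene by edgeR in the 3 comparisons; points are estimates, filled where called, and lines are 95% intervals. C4b stood at 2.18 and 2.20 against Young, and the intervals of Old_CP2 against Old spanned 0 for all 9 genes.

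Of 55 other genes of the pathway, 54 were in the table and 42 could be tested. Among them 3 rose and 1 fell in Old against Young, where 6.7% of all tested genes were called, and 4 rose and 1 fell in Old_CP2 against Young, where 7.57% were called. Without the 4 libraries lowest in choroid plexus markers 1 rose and 2 fell in Old against Young, and 2 rose and 1 fell in Old_CP2 against Young. In Old_CP2 against Old edgeR called 0, with 4 of 42 at an unadjusted p under 0.05. Over all tested genes 0.0443% were called there and 6.31% had such a p. Of the receptors, 2 of 6 tested rose. Itgb2, the beta chain of complement receptors 3 and 4, was at 6.74 ± 0.542 CPM in Old, 7.71 ± 0.773 in Old_CP2 and 4.45 ± 0.555 in Young (0.60 in Old, edgeR adjusted p = 0.00727). Itgax, the alpha chain of receptor 4, was at 0.993 ± 0.354 CPM in Old, 1.97 ± 0.706 in Old_CP2 and 0.146 ± 0.0572 in Young. Its difference between Old_CP2 and Old, 0.98 ± 0.316 on the log2 scale, did not pass (edgeR adjusted p = 0.559). Itgam, the alpha chain of receptor 3, was at 28.9 ± 3.28 CPM in Old, 23.8 ± 0.722 in Old_CP2 and 24.0 ± 3.21 in Young and was not called; it is named here after its values were seen.

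Of the classical proteases C1ra, C1rb, C1s1, C1s2 and C2, 0 of 5 were called in any comparison. C2, the partner of C4 in the convertase, had means of 6.21 ± 1.88 CPM for Old, 4.86 ± 1.71 for Old_CP2 and 3.58 ± 0.848 for Young. Its log2 fold change against Young was 0.79 in Old (edgeR adjusted p = 0.0898) and 0.44 in Old_CP2 (edgeR adjusted p = 0.340). Both old groups overlapped Young, and C2 is named here after its values were seen. Of the lectin branch 5 of 9 genes were tested, and Colec12, a scavenger collectin, had a log2 fold change of 0.47 in Old (edgeR adjusted p = 0.103) and rose in Old_CP2 against Young (0.57, edgeR adjusted p = 0.0489), a call that ended with RLE scaling (0.0502), with only the 2 groups fitted (0.0740) and without any of 6 single libraries. Of the terminal components 3 of 7 were tested (Hc, C7 and C8g) and 0 called, while C6, C8a, C8b and C9 had 6 to 55 reads in all libraries together. Of 12 tested membrane regulators, among them Cd55, Cd46 and Cr1l, 0 were called. Nptx2, a neuronal pentraxin at excitatory synapses that binds C1q, had 54.7 ± 6.28 CPM in the Young libraries and fell to 30.4 ± 8.45 CPM in Old (-0.85 ± 0.174, edgeR adjusted p = 0.0127) and 32.1 ± 4.60 in Old_CP2 (edgeR adjusted p = 0.0190). Its call in Old_CP2 ended without Young 4 or Old_CP2 11 (adjusted p 0.0532 and 0.0619). Without the 4 libraries lowest in choroid plexus markers Itgb2 was not called in Old (edgeR adjusted p = 0.0528), nor was Colec12 in Old_CP2 against Young (0.217). The 2 measured liver markers, of 5 listed, had a sum of at most 0.741 CPM. These were Apoa1 and Serpina1a, with 300 and 151 reads in all libraries together. Alb, Ahsg and Fgb did not pass the filter and are not in this sum. They had 499, 62 and 28 reads in all libraries together, so the sum leaves out the liver marker with most reads.

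Genes with patterns like those of the members were named by the highest Pearson r of log2 CPM over 12 libraries, as a description. For C4b these were the homeobox gene Irx3 (r = 0.98), Icosl, Ppp2r3a and Crnde (r 0.96 each, 0.960 to 0.965). For the mean of the C1q chains they were Nxph3 (0.95), Il10ra, the interleukin 10 receptor (0.93), Plek (0.93) and Ctss, the lysosomal cathepsin S (0.93). For C3ar1 they were Cerkl (0.96), Crebrf, Ctsz, another cathepsin, and Lgi4 (0.94 to 0.95), and for C3 they were Zfp182 (0.86), Il18, Gabarapl2 and Mrpl17 (0.84 to 0.85). With group means subtracted, other genes came first for C4b (Gtpbp8, Mrpl40, Vamp5 and Trim36, r 0.93 to 0.95) and for C1q (Casp8, Rai14, Ilf2 and Tmem159, r 0.91 to 0.96). For Serping1, Fgl2 and Cp stayed among the first 4, with Uaca and the collagen gene Col3a1 (r 0.95 to 0.97). For C3 the first were then Atp5b, Zfp182, Pigx and Il18 (r 0.87 to 0.91), and for C3ar1 Ift81, Kdm6a, Cerkl and Zbtb10 (0.88 to 0.89).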

How the data were processed

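Per the labels' protocols, total RNA was turned into libraries by a kit without strand marking. Per the submitters' processing notes, bcl2fastq, TopHat and featureCounts of Subread were used on mm10; versions and gene models are not given in the sources used here. Raw gene counts and RPKM values per library were deposited by the authors. All 12 libraries were fitted on group alone with edgeR 4.0.16 (filterByExpr, TMM, quasi-likelihood F test, two-sided, Benjamini-Hochberg over 22553 genes, called at an adjusted p under 0.05). Standard errors came from the F statistic, and intervals are 95%. Deposited RPKM were used only to compare levels between genes. Alternatives were DESeq2 1.42.0, limma 3.58.1 voom, RLE scaling, no filter, 2-group fits, summed C4 counts and left-out libraries. The script was tested on simulated data. Libraries within groups were not copies (chi-square per gene at least 14.7). The members, lists, motifs and alternatives were chosen with earlier results of these data known. Pathway genes are named if called in any comparison and averaging 1 CPM or more, and others are marked. Some genes counted in the lists are not reported here by name. Sequences came from GENCODE vM21 (mm10) and RefSeq, aligned with Biopython 1.88.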

Additional observations from a re-analysis of the deposited data

Results flagged for a closer look

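Groups of 4 libraries were searched for a value whose gap to the nearest other value is large against the group's range. Of the 30 groups of values searched, chance alone would pick about 1 in 20 if values were independent and normally spread. There were 3 such values. The C4a level and the C4a share of Old_CP2 15 use the same C4a reads, so they are not separate findings. C4a in Old_CP2 15 was at 14.4 CPM, against 5.63 to 6.68 CPM in the other treated libraries. The C4a share of C4 reads in Old_CP2 15 was 10.4%, against 6.20 to 6.61%, and this library was also the highest of its group in oligodendrocyte and in midbrain and hindbrain markers (6358 and 46.6 CPM). C5ar1 in Young 1 was at 0.181 CPM, from 14 reads, against 0.368 to 0.387 CPM in the other Young libraries.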

How the results depend on the processing

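No paired analysis was possible because the groups share no replicate numbers. The count of members called in Old_CP2 against Young ran from 3 to 6 when single libraries were left out, and in Old against Young from 4 to 5. In Old_CP2 against Old it was 0 under every alternative. With DESeq2, 6 members were called in Old against Young in place of 4. The count there was 3 with C4 counts summed, where C4a and C4b are 1 gene, and 3 without the 4 libraries lowest in choroid plexus markers. Of the pathway genes, 7 were called in Old against Young with DESeq2 in place of 4, and 3 in Old_CP2 against Young without the 4 libraries lowest in choroid plexus markers in place of 5 (3 to 5 without single libraries). The mean difference in the C4a share ran from -3.56 to -2.07 points for Old_CP2 against Old. Signs that turned all belonged to differences that were not called. For C3 in Old against Young, limma voom gave -0.0157 on the log2 scale and single left-out libraries -0.14 to 0.74, and for C3 in Old_CP2 against Young the latter gave -0.63 to 0.31. For C5ar1 in Old_CP2 against Young the values were -0.15 to 0.26 without single libraries and -0.18 without the 4 libraries. In Old_CP2 against Old, C4b was at -0.0205 with C4 counts summed and -0.22 without the 4 libraries, and Colec12 at -0.0173 without them. Without single libraries, C4b ran from -0.18 to 0.22, C1qb from -0.0447 to 0.27, C3ar1 from -0.0806 to 0.17 and Nptx2 from -0.0869 to 0.22. The cause of these shifts was not tested. C5ar1 had the fewest reads of the members, 14 to 47 per library.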
